A study of Homo sapiens with 6 samples.

Results

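The ERV1 endogenous retrovirus subfamilies are the repeat rows that the deposited count files name as subfamily, family and class with the family exactly ERV1 and the class exactly LTR. There were 260 such rows among 28953 rows in all, of which 992 were repeat rows. Of the 260 rows, 60 were internal rows, whose names end in -int, and 200 were long terminal repeat (LTR) rows. Each row sums the reads of every genomic copy of its subfamily. The number and length of the copies were not used here, so a level was compared between hairpins within a row and not between rows.

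Endogenous retroviruses are remnants of retroviruses that entered the germ line. A complete copy has an internal part, which once coded for the viral proteins, between a pair of LTRs that hold the promoter and the polyadenylation signal. Recombination between the LTRs has left most human copies as solitary LTRs without an internal part. ERV1 is the class I group, related to gammaretroviruses. It holds HERVH, HERV9, HERV-W, HERVE and some of the old MER lineages, such as MER4, MER41 and MER61. In most somatic cells its copies are held down by DNA methylation and by histone methylation that KRAB zinc finger proteins recruit through TRIM28 and SETDB1.

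The cells were SH-SY5Y, an established human neuroblastoma line, and the study compared knockdown of TARDBP with control hairpins. The product of TARDBP is the RNA-binding protein TDP-43. There were 3 groups of 2 libraries: cells with the TARDBP hairpin TRCN0000016038, cells with control hairpin SHC007 (control hairpin 1) and cells with control hairpin SHC016 (control hairpin 2). All 3 groups received lentivirus with 8 µg/mL polybrene and a spin of 1 hour at 800 g. They were selected with 2 µg/mL puromycin, started 48 hours after infection and kept for 3 days. No group was left uninfected among the libraries, and each group rests on 1 hairpin sequence. Separate cultures within a group are not stated in the labels, so a p-value covers only how far these libraries lie apart, which could be technical spread. Values are CPM on TMM-scaled library sizes. A row was called higher or lower, written as rose or fell, where its adjusted p in edgeR's quasi-likelihood test was below 0.05 over all 17163 rows tested.

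TARDBP itself stood at 18.9 and 24.0 CPM with its hairpin, at 80.9 and 72.4 with control hairpin 1 and at 92.7 and 81.5 with control hairpin 2, and it fell by 1.93 on the log2 scale against the mean of both controls, with an SE of 0.126 and an adjusted p of 1.68e-05. Library totals ran from 18605745 to 21698339 counts. The mitochondrial ribosomal gene RNR2 was the largest row in all 6 libraries and took 8.58 and 8.84% of counts in the TARDBP-hairpin libraries, 7.68 and 5.28% under control hairpin 1 and 4.44 and 4.43% under control hairpin 2. The summed level of 8 neuroblastoma markers was 878 and 800 CPM with the TARDBP hairpin, 1434 and 1641 under control hairpin 1 and 1102 and 1295 under control hairpin 2, with TH, which makes dopamine's precursor, at 0.147 CPM or less in all 6 libraries. The summed level of 6 fibroblast-type markers was 97.6 and 119 CPM with the TARDBP hairpin and between 1404 and 1844 CPM in the 4 control libraries, and that of 4 epithelial markers ran from 29.0 to 35.6, from 9.48 to 12.9 and from 82.3 to 133 CPM in the same order of groups. The fibroblast-type sum was mostly COL3A1, a fibrillar collagen, at 52.0 and 63.7 CPM with the TARDBP hairpin and between 1307 and 1652 CPM in the controls, while DCN, the proteoglycan decorin, rose to 6.26 and 8.31 CPM from between 0.612 and 2.12 CPM. KRT18, a keratin, made up most of the epithelial sum, and EPCAM, an epithelial adhesion molecule, rose to 3.36 and 6.86 CPM from between 0.392 and 1.17 CPM. The 4 astrocyte and the 5 myeloid and lymphoid markers each summed to under 1 CPM in every library, with 2 of the latter at 0. These marker levels and the RNR2 share move with the hairpins, and their part in the ERV1 values below was not tested. In bulk RNA, a change in the mix of cells and a change in RNA per cell cannot be told apart.

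ERV1 RNA was most abundant with the TARDBP hairpin. The 260 rows summed to 7054 and 7102 CPM with the TARDBP hairpin, to 5834 and 5995 with control hairpin 1 and to 4990 and 5169 with control hairpin 2. No group overlapped another, so the control hairpins also differed from each other. The group means were 7078 ± 33.9, 5914 ± 114 and 5080 ± 127 CPM (SD, n = 2), which puts the TARDBP hairpin 1.20 times above control hairpin 1 and 1.39 times above control hairpin 2. As a share of all counts, ERV1 rows held 0.689% ± 0.0281, 0.607% ± 0.0110 and 0.508% ± 0.00262 in the same order. As a share of repeat counts they held 2.60 and 2.88% with the TARDBP hairpin, against 2.56 and 2.48% under control hairpin 1 and 2.47 and 2.42% under control hairpin 2. Within the repeat counts the TARDBP-hairpin libraries again lay above all controls, by a small margin for the first, and the ratio to control hairpin 1 was 1.09. The share of all repeat rows among the counts ran from 24.7 to 25.8% with the TARDBP hairpin, from 23.4 to 24.8% with control hairpin 1 and from 20.6 to 20.9% with control hairpin 2.

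**Figure D1:**
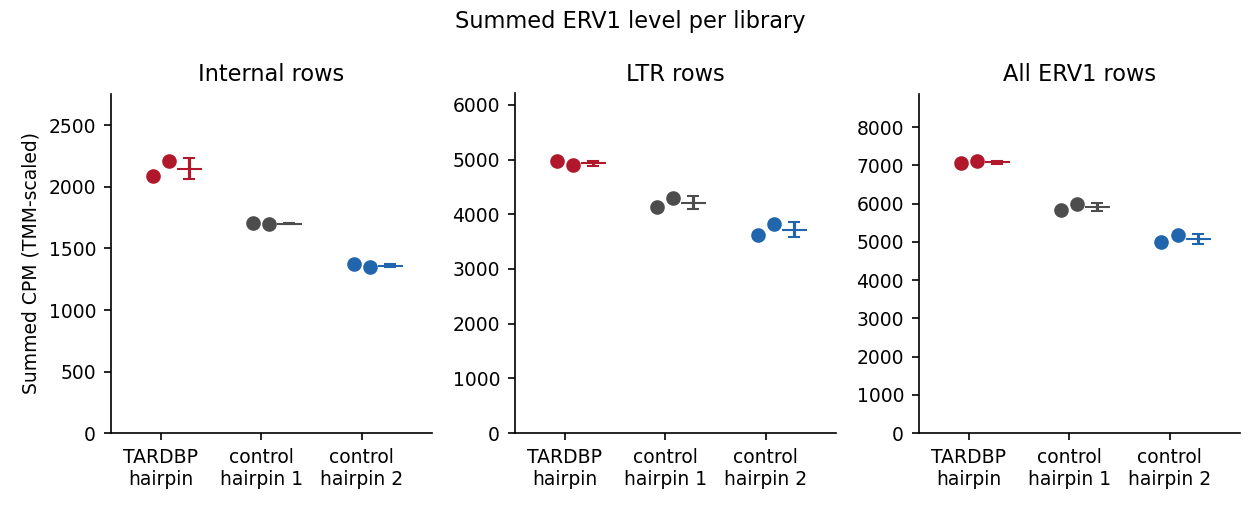
Summed CPM of the internal rows, the LTR rows and all ERV1 rows (y axis, from 0) in each of the 6 libraries, by hairpin (x axis). Points are libraries and the marks with bars are group means ± SD of 2 libraries. In each panel both TARDBP-hairpin libraries lie above all control libraries, and control hairpin 1 lies above control hairpin 2.

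Both kinds of row took part. Internal rows summed to 2148 ± 83.4 CPM with the TARDBP hairpin, 1700 ± 4.45 with control hairpin 1 and 1361 ± 15.6 with control hairpin 2 (SD, n = 2). LTR rows summed to 4930 ± 49.5, 4214 ± 118 and 3718 ± 143 CPM. The internal share of ERV1 counts was 29.6 and 31.1% with the TARDBP hairpin, 29.2 and 28.3% under control hairpin 1 and 27.5 and 26.1% under control hairpin 2. The groups did not overlap in that share either. Of the 1581 CPM gained over the mean of both controls, LTR rows held 61% and internal rows 39%. The gain was spread over many subfamilies: LTR12C, the row with the largest gain, held 3.97% of it and the 10 rows with the largest gains held 24.6% together.

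Against the mean of both controls, ERV1 rows rose far more often than they fell. Of the 251 rows with enough counts to be tested, 150 rose and 1 fell, while 23.9% of all tested rows rose and 24.3% fell. The median log2 fold change of the 251 rows was 0.38, beside 0.04 over all tested rows. Over the 710 other repeat rows it was 0.20, and 257 of them rose and 1 fell. The other LTR-class families were close to ERV1, of which 59.8% rose. Of the ERVK rows 62.2% rose (median 0.385), of the ERVL rows 51% (0.292) and of the ERVL-MaLR rows 52.6% (0.255). Only 2 ERV1 rows passed 2-fold, so the pattern was one of many small rises. Both TARDBP-hairpin libraries lay above all 4 control libraries in 167 of the 251 rows and below all 4 in 0, with overlap in the remaining 84. Over all tested rows, 23.3% lay above and 22.8% below, and 45.2% of the other repeat rows lay above. With 1 library left out, 83 to 133 rows were called higher, the lowest counts being 98 and 83 without the first and the second TARDBP-hairpin library. When the 4 control libraries were treated as 1 group, 33 rows were called higher. The counts from these altered fits stand without the share of all tested rows. They show only how the ERV1 calls moved.

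Repeat rows of other kinds rose as well, and the scaling decided how much of the ERV1 rise remained. When the libraries were scaled on repeat rows alone, the median over all tested rows moved from 0.04 to -0.18, that of the other repeat rows to -0.02 and that of ERV1 rows to 0.16. On that scale 53 ERV1 rows were called higher and 4 lower, beside 13.1% and 36.2% of all tested rows. The internal rows then had a median of 0.27, with 22 of 59 called higher, and the LTR rows one of 0.14, with 31 of 192 called higher.

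**Figure D2:**
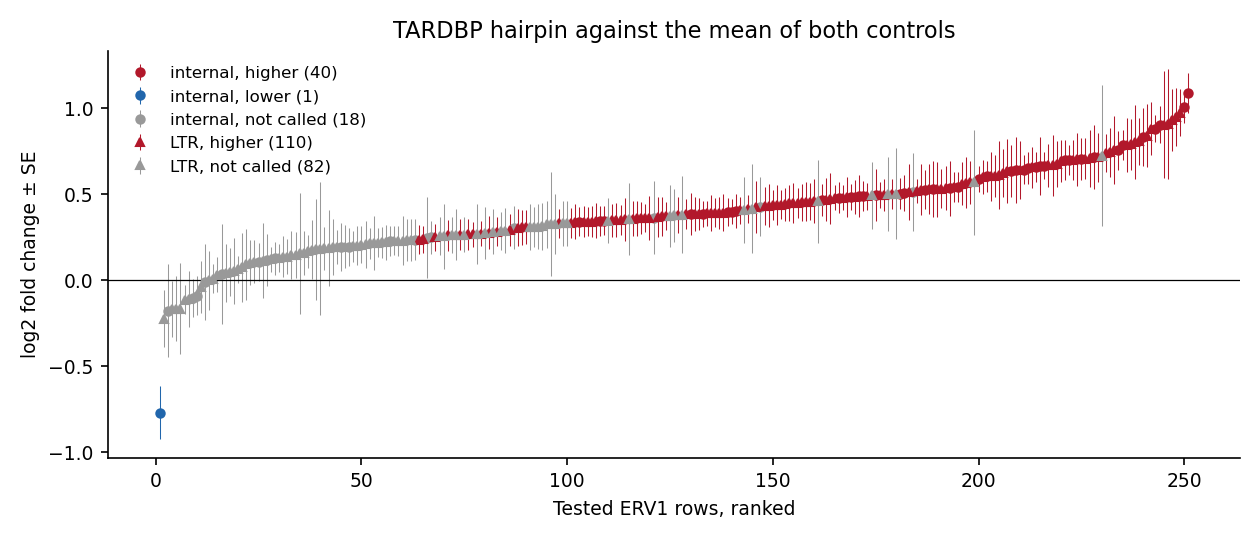
The 251 tested ERV1 rows ranked by their log2 fold change with the TARDBP hairpin against the mean of both controls (y axis, bars ± SE). Circles are internal rows, triangles LTR rows and colours the calls. The 150 rows called higher fill the upper end and PABL_B-int, at -0.77, is the only row called lower.

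The largest rises were ranked among called rows with an average log2 CPM of at least 0 and both TARDBP-hairpin libraries above all controls. Lying above all controls was thus a condition of entry for these rows. The 10 largest rises by that rule were 4 internal and 6 LTR rows. LTR25-int, the internal part that belongs with LTR25, stood at 32.0 and 31.1 CPM with the TARDBP hairpin, at 17.7 and 14.0 with control hairpin 1 and at 14.7 and 13.1 with control hairpin 2. The TARDBP-hairpin libraries were well above all 4 controls, and the controls overlapped each other. The row rose by a log2 fold change of 1.09 (SE 0.118, adjusted p = 1.77e-04). HERVP71A-int, the internal part of the HERVP71A provirus, stood at 33.1 and 36.0 CPM against 17.8 and 17.5 under control hairpin 1 and 16.1 and 17.3 under control hairpin 2. Here the 4 control libraries lay close together and both TARDBP-hairpin libraries were far above them, with a log2 fold change of 1.01 (SE 0.0931, adjusted p = 8.53e-05). PRIMA41-int, the internal partner of the MER41 LTRs, stood at 41.1 and 49.2 CPM, at 28.5 and 27.7 with control hairpin 1 and at 19.1 and 22.2 with control hairpin 2. The 3 groups were separate, and the log2 fold change against the mean of both controls was 0.91 (SE 0.107, adjusted p = 2.80e-04).

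The other large rises were LTR26E (log2 fold change 0.97), LTR2C (0.95), LTR45 (0.94), PrimLTR79 (0.91), MER61-int (0.88), LTR35B (0.88) and MER61D (0.84). LTR26E stood at 9.98 and 9.09 CPM with the TARDBP hairpin and between 4.47 and 5.19 CPM in the 4 control libraries. PrimLTR79 had 1.55 CPM or less in every library, and its call (adjusted p = 0.0448) held in 3 of the 13 alternative analyses. LTR25-int, HERVP71A-int, PRIMA41-int, LTR26E, LTR2C and LTR35B belonged to the 29 rows called higher in all 13 of them. In all, 69 of the 150 rows were called higher whichever library was left out.

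Rows with more counts were called more often, at much the same fold. Of the 48 tested rows under a mean of 5 CPM, 18 rose (37.5%), with a median log2 fold change of 0.48 and a median SE of 0.207. Of the 28 rows over 50 CPM, 23 rose (82.1%), with a median of 0.40 and a median SE of 0.0779. The bands between, from 5 to 20 and from 20 to 50 CPM, had medians of 0.37 and 0.35 and 54.6% and 74.6% of rows called higher.

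Among the 8 rows with the highest mean CPM, 6 rose. LTR12C, an LTR of the HERV9 lineage, stood at 391 and 358 CPM with the TARDBP hairpin, at 282 and 317 with control hairpin 1 and at 302 and 345 with control hairpin 2. The lower TARDBP-hairpin library lay just above the highest control library. Its log2 fold change was 0.27 (SE 0.0907, adjusted p = 0.0394), and it was called in 4 of 13 alternatives. The call was lost without either TARDBP-hairpin library, at 0.20 and 0.33, without the first library of control hairpin 1 (0.22) or of control hairpin 2 (0.21), and with scaling on repeat rows (0.04). LTR8 stood at 133 and 136 CPM against 99.8 and 97.3 under control hairpin 1 and 88.3 and 91.1 under control hairpin 2, with tight pairs and no overlap between any 2 groups. Its log2 fold change was 0.52 (SE 0.0693, adjusted p = 5.14e-04). LTR8A, MER4-int and MER41-int rose by 0.48, 0.66 and 0.48, and HERVH-int is described with its lineage. MER52A and LTR78 did not pass: MER52A stood at 227 and 207 CPM with the TARDBP hairpin and between 175 and 226 CPM in the controls, and LTR78 at 156 and 155 CPM and between 132 and 170 CPM, so that in both rows the groups overlapped.

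Against each control hairpin alone the counts of calls differed. Against control hairpin 1, 81 of 251 ERV1 rows rose and 0 fell, with a median log2 fold change of 0.26, beside 21.1% of all tested rows called higher and 21.8% called lower (42.9% in either direction). Against control hairpin 2, 164 rose and 1 fell, with a median of 0.50, beside 24% and 26.2% of all tested rows (50.2% in either direction). The comparisons share the TARDBP-hairpin libraries. With 1 library left out, 31 to 60 rows were called higher against control hairpin 1, with 40 and 37 without the first and second TARDBP-hairpin library, 31 and 39 without those of control hairpin 1 and 53 without the second of control hairpin 2. Against control hairpin 2, 97 to 159 were called higher, with 103 and 97 without the first and second library of that hairpin. The medians of all tested rows were close to 0, at 0.03 and 0.02. Scaled on repeat rows alone, 42 rows were called higher against control hairpin 1, and 39 higher and 8 lower against control hairpin 2. The ERV1 medians were then 0.17 and 0.15, beside medians of -0.02 and 0.00 over the other repeat rows. These counts, and those with 1 library left out, stand without the share of all tested rows. They show only how the ERV1 calls moved.

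The other repeat families were set beside ERV1 in both comparisons. Against control hairpin 1 the median was 0.26 for ERV1, 0.23 for the 37 ERVK rows, 0.19 for the 102 ERVL rows, 0.12 for the 78 ERVL-MaLR rows and 0.02 for the 145 LINE rows. Against control hairpin 2 the same medians were 0.50, 0.61, 0.41, 0.39 and 0.40. Of the 710 repeat rows outside ERV1, 76 rose and 2 fell against control hairpin 1, and 416 rose and 1 fell against control hairpin 2. No test of the difference between families was made.

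**Figure D3:**
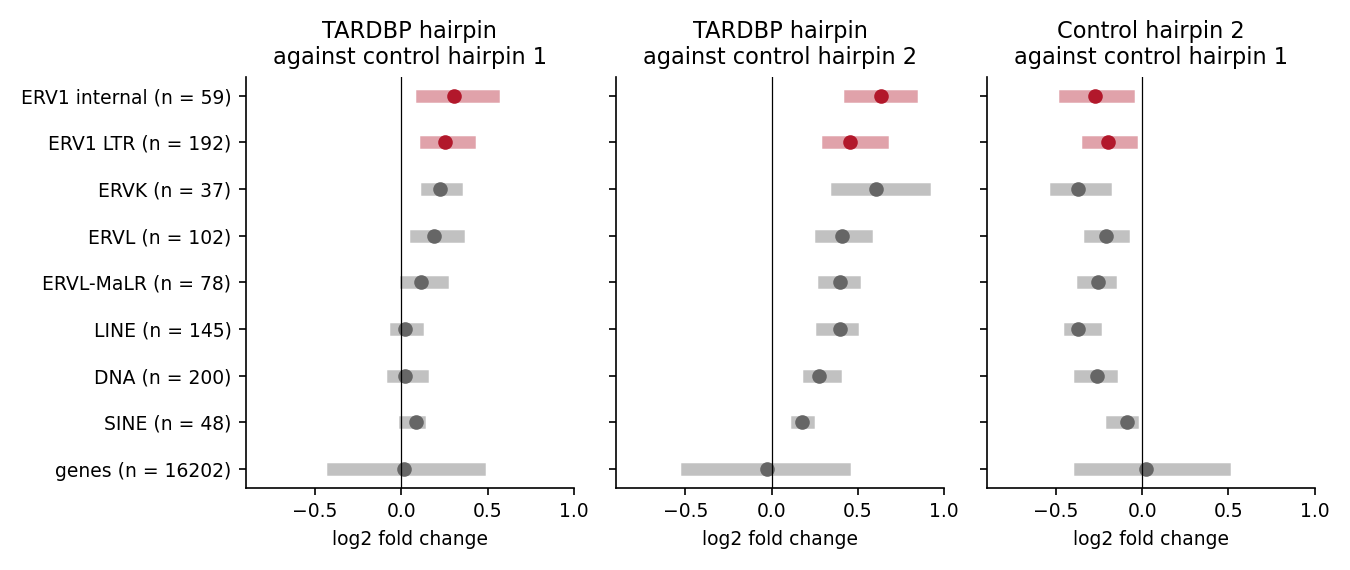
Median (point) and middle range from the lower to the upper quartile (bar) of log2 fold changes within sets of tested rows, in 3 comparisons between hairpins; n is the number of rows in a set. The ERV1 internal and LTR rows, in red, lie above 0 in both comparisons with the TARDBP hairpin, with medians of 0.31 and 0.25 against control hairpin 1 and 0.63 and 0.46 against control hairpin 2, and below 0 between the control hairpins at this scaling; scaled on repeat rows alone, the median of all ERV1 rows in the last panel is 0.06.

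Rows that rose against both control hairpins make the narrower set. They numbered 75, or 29.9% of tested ERV1 rows, beside 10.6% of all tested rows and 9.44% of the other repeat rows. Of the 75, 26 were internal and 49 LTR rows. In 65 of them the control hairpins were not called different from each other, and in the remaining 10 control hairpin 2 was lower. A further 89 rows rose only against control hairpin 2 by their calls, 6 only against control hairpin 1, and 80 passed in neither comparison; whether the effect differs between these sets was not tested.

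The control hairpins themselves differed in ERV1. With control hairpin 2, 56 rows were lower and 2 higher than with control hairpin 1 and the median log2 fold change was -0.20, a direction that scaling on repeat rows alone turned to 0.06, with 14 rows higher and 8 lower. Over all tested rows, 20.4% were lower and 22.8% higher at the first scaling (43.2% in either direction), and the other repeat rows had a median of -0.27. That share is not printed for the scaling on repeat rows or for the fits with 1 library left out. The counts from those fits show only how the ERV1 calls moved. In 114 of 251 rows (45.4%) the 3 groups were ordered without overlap, with the TARDBP hairpin above control hairpin 1 and control hairpin 1 above control hairpin 2. The same order was found in 35.5% of the other repeat rows and in 9.24% of all tested rows. With 1 library left out, 21 to 48 rows were called lower with control hairpin 2, with 27 and 32 without the first and second library of control hairpin 1, and 26 and 21 without those of control hairpin 2.

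The largest of these differences changed how single rows read. MER61-int stood at 112 and 122 CPM with the TARDBP hairpin, at 86.1 and 90.5 with control hairpin 1 and at 47.0 and 44.5 with control hairpin 2. The 3 groups were separate, and the gap between the controls exceeded that between the TARDBP hairpin and control hairpin 1. Its log2 fold change was 0.41 against control hairpin 1, 1.36 against control hairpin 2 and -0.95 for control hairpin 2 against control hairpin 1. PRIMAX-int stood at 17.3 and 17.2 CPM with the TARDBP hairpin, just under the 18.2 and 21.0 of control hairpin 1, and at 9.79 and 8.06 with control hairpin 2. It was called higher against the mean of both controls (0.38, adjusted p = 0.0294) although it was no higher than control hairpin 1 in either library. MER34C (-1.15), MER67D (-0.73) and LTR72B (-0.73) completed the 5 largest falls with control hairpin 2 against control hairpin 1, given as log2 fold changes, and none of them passed for the TARDBP hairpin against control hairpin 1 (0.18, 0.01 and 0.28).

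In the opposite direction stood 2 internal rows. PABL_B-int, the only ERV1 row called lower with the TARDBP hairpin, stood at 6.67 and 7.48 CPM, at 6.12 and 8.37 with control hairpin 1 and at 20.4 and 19.7 with control hairpin 2. The TARDBP hairpin and control hairpin 1 overlapped, and control hairpin 2 alone was high. The log2 fold change was -0.77 against the mean of both controls (SE 0.155, adjusted p = 0.00395), -0.04 against control hairpin 1 and -1.50 against control hairpin 2. HERV30-int stood at 8.38 and 7.89 CPM, at 3.06 and 4.02 with control hairpin 1 and at 7.90 and 9.99 with control hairpin 2. Here control hairpin 1 alone was low, and the log2 fold change was 1.20 against control hairpin 1 and -0.14 against control hairpin 2. LTR30, the LTR of that lineage, was called higher against control hairpin 1 (0.95) and did not pass against control hairpin 2 (0.32).

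**Figure D4:**
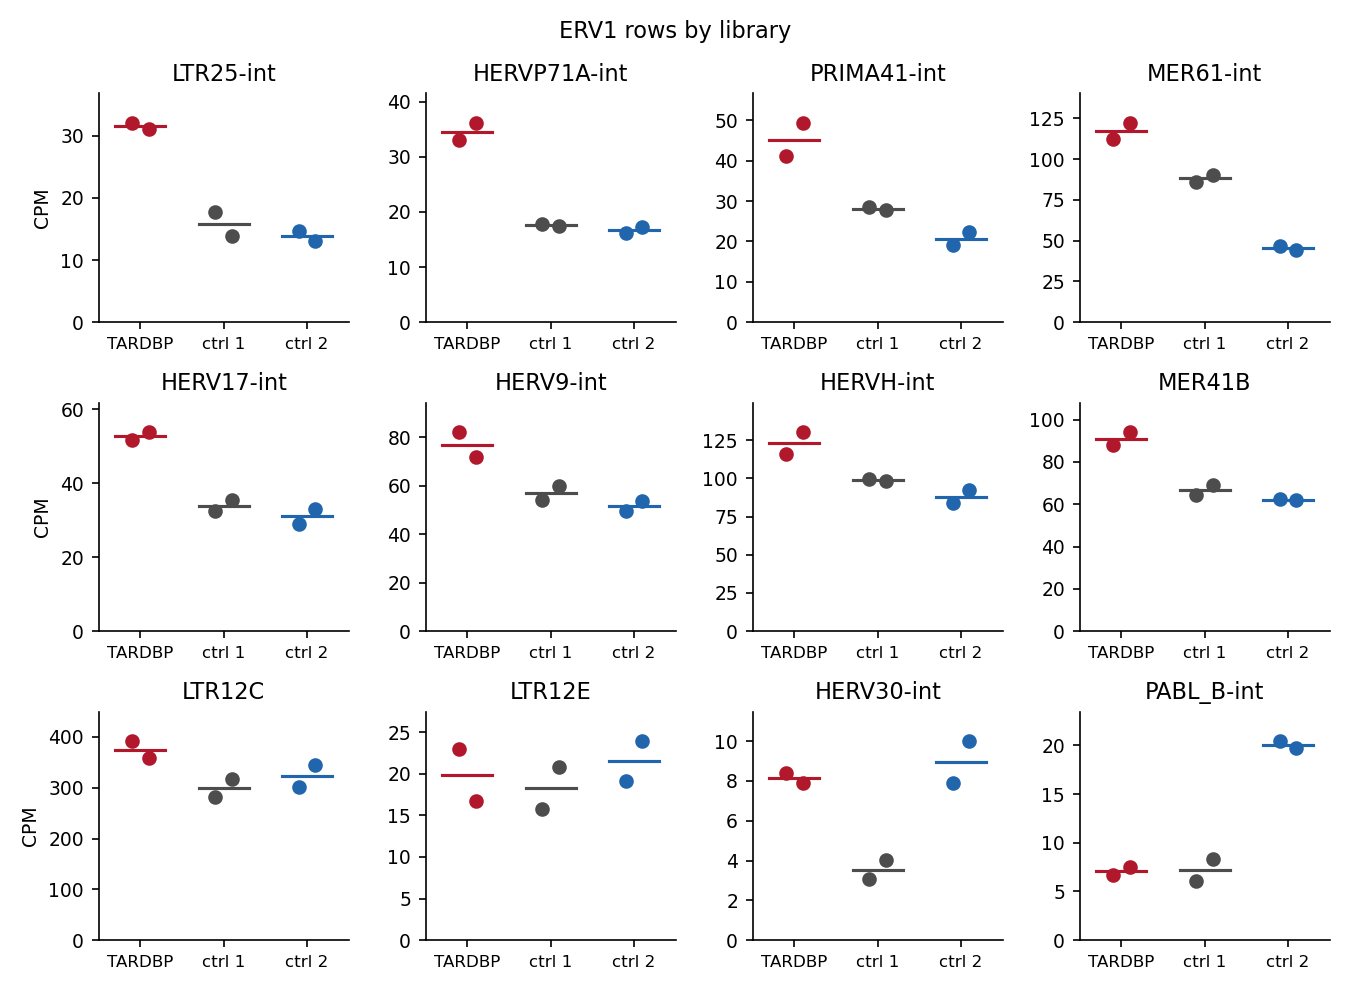
CPM (y axes, each from 0) of 12 ERV1 rows in the 6 libraries, by hairpin; points are libraries and lines are group means. LTR25-int and HERVP71A-int are high with the TARDBP hairpin alone, MER61-int steps down from group to group, HERV30-int is low with control hairpin 1 alone and PABL_B-int is high with control hairpin 2 alone.

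The share of rows that rose varied between lineages that join internal parts with their LTRs. The lineages held 2 to 12 tested rows each, and 59.8% of all tested ERV1 rows rose against the mean of both controls. The difference between lineages was not tested. HERVH with its LTR7 promoters is known for its activity in pluripotent cells. Rows were grouped here by name, which put HERVH48-int in this lineage. Of the 6 tested rows so grouped, 4 rose against the mean of both controls, with a median log2 fold change of 0.37. HERVH-int stood at 116 and 130 CPM with the TARDBP hairpin, 99.7 and 98.2 under control hairpin 1 and 83.7 and 92.4 under control hairpin 2. The TARDBP-hairpin libraries lay above all controls, and the log2 fold change was 0.40 (SE 0.0823, adjusted p = 0.00449). LTR7, LTR7B and LTR7C rose by 0.34, 0.45 and 0.62, while HERVH48-int (0.31) and LTR7Y (0.08) did not pass, and LTR7A had too few counts to be tested. Scaled on repeat rows alone, 1 of the 6 rows was called higher and the median was 0.15. The summed level of 6 pluripotency genes was between 1.63 and 2.39 CPM in all libraries.

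In the HERV9 lineage the internal row rose with few of its LTRs. HERV9-int stood at 82.1 and 71.8 CPM with the TARDBP hairpin, at 54.2 and 59.9 with control hairpin 1 and at 49.4 and 53.7 with control hairpin 2, above all controls. It rose by a log2 fold change of 0.50 (SE 0.0903, adjusted p = 0.00223) and was among the 29 rows called in every alternative. Its LTRs are the LTR12 rows, promoters known to be bound by the CCAAT factor NF-Y. Of 7 LTR12 rows only LTR12C (0.27) and LTR12F (0.36) rose. LTR12 (0.23), LTR12B (0.31) and LTR12D (0.27) passed against control hairpin 2 alone. LTR12E stood at 23.0 and 16.7 CPM with the TARDBP hairpin, at 15.7 and 20.8 with control hairpin 1 and at 19.1 and 23.9 with control hairpin 2, in full overlap, and the log2 fold changes of LTR12E and of the row named LTR12_ were 0.00 and 0.01. With scaling on repeat rows, 1 of the 8 rows of the lineage was called higher, with a median of 0.04.

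HERV-W gave rise to the placental fusion protein syncytin-1, and its parts are HERV17-int and LTR17. HERV17-int stood at 51.7 and 53.8 CPM with the TARDBP hairpin, at 32.5 and 35.4 with control hairpin 1 and at 29.1 and 33.0 with control hairpin 2. The controls overlapped each other and lay well below both TARDBP-hairpin libraries. Its log2 fold change was 0.70 (SE 0.0896, adjusted p = 4.12e-04), with 0.64 against control hairpin 1 and 0.76 against control hairpin 2, and it was called in all 13 alternatives. LTR17 rose by 0.33, at 46.5 and 46.1 CPM against 33.3 to 38.1 CPM in the controls, and lost its call with scaling on repeat rows. HERVE and its relative Harlequin, with the LTR2 rows, had 5 of 6 rows higher and a median of 0.52. HERVE_a-int rose by 0.76, Harlequin-int by 0.54, HERVE-int by 0.49 and LTR2 by 0.33, and LTR2B (0.31) did not pass. When repeat rows set the scale, 4 of these 6 rows were called higher, with a median of 0.29.

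In the MER41 and MER61 lineages nearly all tested rows rose. MER41 is an old primate lineage whose internal part is listed as PRIMA41-int and MER41-int. Of its 8 rows, with both internal rows included, 7 rose, with a median of 0.50. MER41B stood at 87.8 and 94.0 CPM with the TARDBP hairpin, at 64.3 and 68.9 with control hairpin 1 and at 62.6 and 61.8 with control hairpin 2. All controls lay close together and the log2 fold change was 0.50 (SE 0.0756, adjusted p = 9.84e-04). MER41A, MER41C, MER41D and MER41E rose by 0.39, 0.45, 0.79 and 0.72, and MER41G, under 3.1 CPM in every library, did not pass at 0.50. With scaling on repeat rows, 5 of the 8 were called higher, with a median of 0.27. In the MER4 lineage 11 of 12 rows rose, with a median of 0.36, but 3 of them passed against control hairpin 1. With scaling on repeat rows, 2 of the 12 were called higher against the mean of both controls, with a median of 0.13. MER4-int stood at 116 and 130 CPM with the TARDBP hairpin, at 104 and 94.7 with control hairpin 1 and at 63.8 and 58.4 with control hairpin 2, so that most of its distance lay between the control hairpins (-0.70).

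MER61 elements are known for p53 binding sites in their LTRs. All 7 tested MER61 rows rose, with a median of 0.60, from 0.37 for MER61B to 0.88 for MER61-int. MER61C stood at 29.7 and 31.1 CPM with the TARDBP hairpin, at 26.2 and 24.6 with control hairpin 1 and at 14.6 and 17.0 with control hairpin 2. As in MER61-int, the groups were separate and the control hairpins were far apart. Against control hairpin 1 alone 3 of the 7 passed, namely MER61-int (0.41), MER61A (0.40) and MER61D (0.91). Under repeat-row scaling, 3 of 7 were called higher against the mean of both controls, with a median of 0.38.

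LTR10 is another ERV1 LTR group known for p53 sites, and its internal rows are those of HERVI and HERVIP10. Of these 11 rows 4 rose, with a median of 0.23, which came to 0.01 when libraries were scaled on repeat rows. LTR10G rose by 0.74, with 7.45 and 8.00 CPM against 5.20 and 5.63 under control hairpin 1 and 3.63 and 4.19 under control hairpin 2, and LTR10E by 0.56. HERVIP10F-int and HERVIP10FH-int rose by 0.34 and 0.35 and did not pass against control hairpin 1 (0.13 and 0.12). HERVI-int (0.24), LTR10C (0.23), LTR10D (0.19), LTR10F (0.15), LTR10A (0.11), LTR10B1 (0.09) and LTR10B (-0.16) did not pass. In HERVS71 with its LTR6 rows, LTR6A (0.26) and LTR6B (0.47) rose and HERVS71-int (0.25) did not pass. Neither LTR6 row passed against control hairpin 1, at 0.19 and 0.32, and with scaling on repeat rows LTR6A and LTR6B both lost their call against the mean of both controls (edgeR adjusted p = 0.75 and 0.14), with a median of 0.04 over the 3 rows.

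Within lineages the internal parts differed more between hairpins than the LTRs in most cases. Of 22 lineages with both parts, the ratio of summed CPM with the TARDBP hairpin over control hairpin 1 was larger for the internal part in 15, and over control hairpin 2 also in 15. The ratio exceeded 1 in 20 and 20 lineages for the internal part and in 21 and 22 for the LTRs, at the TMM scaling over all rows. The parts also differed without the TARDBP hairpin. The ratio of control hairpin 2 over control hairpin 1 was smaller for the internal part in 16 lineages and larger in 6. By rows, 40 of 59 internal rows rose and 1 fell against the mean of both controls, with a median of 0.49, and 110 of 192 LTR rows rose and 0 fell, with a median of 0.36. The difference between the parts was not tested.

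**Figure D5:**
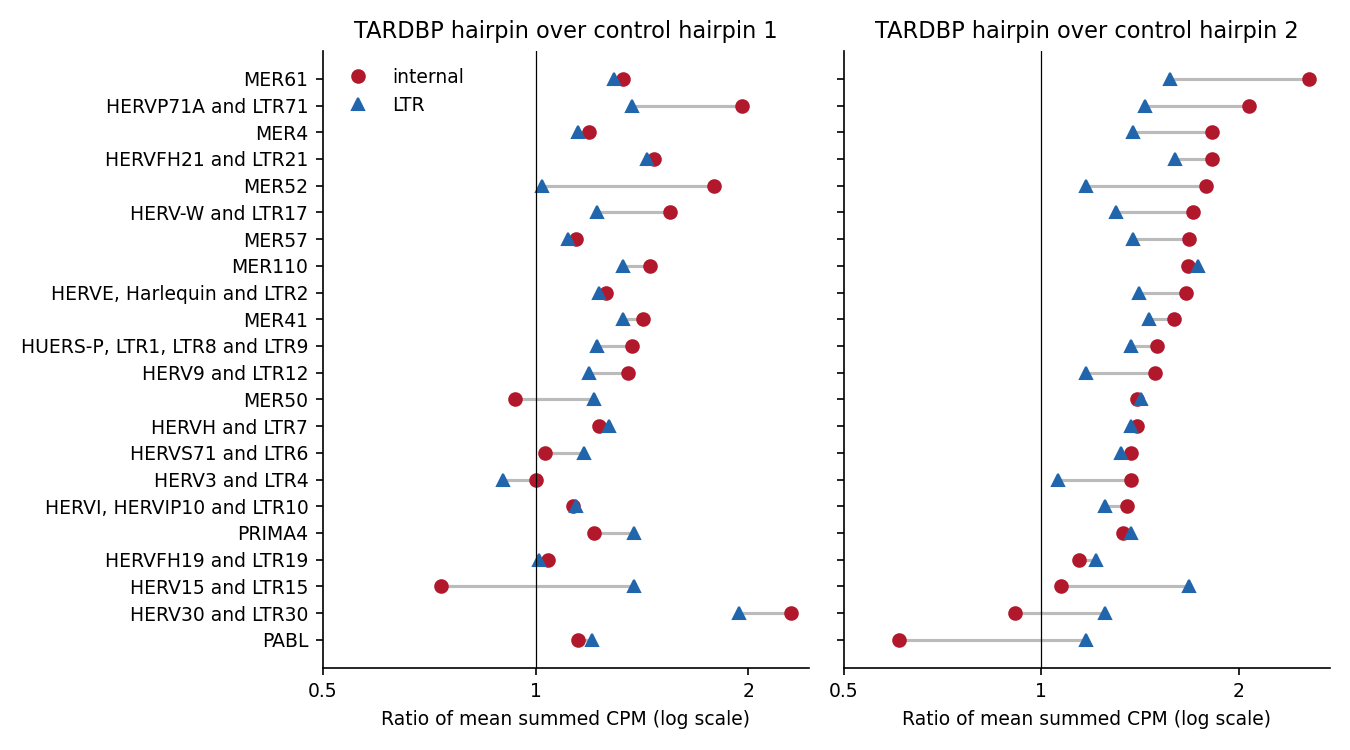
Ratio of mean summed CPM with the TARDBP hairpin over each control hairpin (x axes, log scale) for the internal part (circles) and the LTRs (triangles) of 22 ERV1 lineages, joined by a line within a lineage. The internal part lies to the right of the LTRs in 15 lineages in each panel, and HERV30, HERV15, MER50 and PABL have their internal part on the left of 1 in at least 1 panel.

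Genes that still code for ERV1 proteins were followed apart from the repeat rows. Of 12 listed symbols 6 were in the files and 2 could be tested. ERV3-1, which carries the envelope gene of the ERV3 provirus, stood at 62.9 and 74.5 CPM with the TARDBP hairpin, at 49.1 and 45.4 with control hairpin 1 and at 40.6 and 36.8 with control hairpin 2. The groups were separate and the gene rose by a log2 fold change of 0.68 (SE 0.0964, adjusted p = 6.65e-04), by 0.54 against control hairpin 1 and by 0.83 against control hairpin 2. The repeat rows of the same lineage did not pass against the mean of both controls: HERV3-int, at 42.7 and 48.3 CPM against 46.5 and 44.3 under control hairpin 1 and 32.6 and 34.0 under control hairpin 2, overlapped control hairpin 1 (0.00), and LTR4 had a log2 fold change of -0.04. ERV3-1 shares readthrough transcripts with the zinc finger gene ZNF117, and the rule by which shared reads were counted is not stated in the labels. ERVMER34-1, an envelope gene of a MER34 copy, stood at 1.09 and 1.04 CPM, at 0.255 and 0.0490 with control hairpin 1 and at 0.526 and 0.707 with control hairpin 2. It rose by a log2 fold change of 1.77 (SE 0.420, adjusted p = 0.00863) and did not pass against control hairpin 2 (0.77). ERVV-2 had 0 counts in all 6 libraries, which allows up to 3 counts a library.

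The promoter windows of these genes are shown because they are single loci with a known start, which the repeat rows are not. RefSeq (GRCh38.p14) lists 2 starts for ERV3-1 and 1 for ERVMER34-1, and each window of 300 bases is printed 5′ to 3′ on the minus strand, with capitals marking CCAAT, the pentamer bound by NF-Y. The window of the upstream ERV3-1 start is chr7:65006638-65006937, that of the downstream one chr7:64999393-64999692 and that of ERVMER34-1 chr4:52751376-52751675. Each window holds 250 bases before the start and 50 after it.
ERV3-1, upstream start: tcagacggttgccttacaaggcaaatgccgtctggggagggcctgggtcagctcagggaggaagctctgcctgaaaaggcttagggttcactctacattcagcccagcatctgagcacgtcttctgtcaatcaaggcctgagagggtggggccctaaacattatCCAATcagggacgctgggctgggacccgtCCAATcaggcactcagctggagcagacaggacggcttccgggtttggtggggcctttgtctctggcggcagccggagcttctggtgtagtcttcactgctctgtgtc
ERV3-1, downstream start: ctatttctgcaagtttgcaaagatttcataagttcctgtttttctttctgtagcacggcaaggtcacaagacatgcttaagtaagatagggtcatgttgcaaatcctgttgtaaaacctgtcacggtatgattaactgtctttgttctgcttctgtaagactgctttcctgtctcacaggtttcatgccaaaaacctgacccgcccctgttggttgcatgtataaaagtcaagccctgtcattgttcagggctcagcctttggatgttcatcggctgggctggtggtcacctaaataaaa
ERVMER34-1: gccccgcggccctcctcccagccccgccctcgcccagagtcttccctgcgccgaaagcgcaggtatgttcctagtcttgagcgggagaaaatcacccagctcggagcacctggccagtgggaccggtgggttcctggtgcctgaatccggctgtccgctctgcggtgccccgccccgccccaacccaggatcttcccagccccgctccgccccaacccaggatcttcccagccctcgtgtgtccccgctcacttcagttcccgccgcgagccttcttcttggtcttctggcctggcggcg
CCAAT was searched on both strands. The upstream ERV3-1 window holds 2 matches, at positions 165 and 194 counted from 1 at its 5′ end, and neither of the other windows holds one. Of 35116 RefSeq promoter windows of this length, 34.6% hold at least 1.

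Among factors known to bind ERV1 LTRs, few passed the test. Of 16 listed genes 12 were tested, 1 rose (8.33%) and 3 fell (25%), with a median of -0.05, beside 23.9 and 24.3% of all tested rows. NFYA, the DNA-binding subunit of NF-Y, stood at 104 and 113 CPM with the TARDBP hairpin, at 77.9 and 75.8 with control hairpin 1 and at 64.9 and 59.4 with control hairpin 2, and rose by 0.65 (SE 0.0780, adjusted p = 3.03e-04). NFYC, another NF-Y subunit, fell by 0.87 on the log2 scale, at 12.6 and 14.5 CPM against 20.4 to 29.4 CPM in the controls. Both subunits were thus separate from all controls, in opposite directions. SP1 and MYB fell by 0.44 and 0.85 on the log2 scale against the mean of both controls. SP1 passed against control hairpin 1 (-0.67) and not against control hairpin 2 (-0.21), and MYB passed against control hairpin 2 (-1.60) and not against control hairpin 1 (-0.09). Whether these levels bear on the ERV1 rows was not tested.

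Genes of the silencing pathways moved in both directions. Of 33 listed genes in the files 31 were tested, and against the mean of both controls 3 rose (9.68%) and 13 fell (41.9%), with a median of -0.07, beside 23.9 and 24.3% of all tested rows. Against control hairpin 1 the counts were 6 (19.4%) and 9 (29%), beside 21.1 and 21.8% of all rows, and against control hairpin 2 they were 3 (9.68%) and 15 (48.4%), beside 24 and 26.2%. UHRF1, which brings DNA methyltransferase to replicated DNA, stood at 11.6 and 11.8 CPM with the TARDBP hairpin, at 27.7 and 32.9 with control hairpin 1 and at 79.1 and 89.6 with control hairpin 2. The 3 groups were far apart and the gene fell by 2.11 on the log2 scale, with an SE of 0.117 and an adjusted p of 9.33e-06. CHAF1A, the large subunit of chromatin assembly factor 1, fell by 1.86 with the same order of groups. DNMT3A, a DNA methyltransferase, stood at 67.8 and 70.4 CPM, at 116 and 112 with control hairpin 1 and at 115 and 109 with control hairpin 2, and fell by 0.71. DNMT3B, its relative, fell by 1.63, from between 5.42 and 6.58 CPM in the controls to 1.66 and 2.18 CPM. For both methyltransferases the control hairpins overlapped.

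Among the silencing genes that rose, FAM208A (TASOR, the scaffold of the HUSH complex) stood at 157 and 164 CPM against 112 to 118 CPM in the controls, and rose by 0.47. CBX5, heterochromatin protein 1 alpha, stood at 380 and 382 CPM, at 162 and 199 with control hairpin 1 and at 446 and 468 with control hairpin 2, between the control hairpins. KIAA1551 (RESF1) was called at 0.32 and did not pass against control hairpin 1 (-0.06). Between the control hairpins 11 of the 31 genes (35.5%) were higher and 7 (22.6%) lower with control hairpin 2, beside 22.8 and 20.4% of all tested rows. The 11 included UHRF1, CHAF1A and TRIM28, which were higher by 1.48, 1.17 and 0.74 on the log2 scale. The 7 included KIAA1551 (-0.77), SETDB1 (-0.63) and ATF7IP (-0.55). TRIM28 fell by 0.42 against the mean of both controls (edgeR adjusted p = 0.0496) and did not pass against control hairpin 1 (-0.05). SETDB1 did not pass against the mean of both controls (-0.02) and was called lower against control hairpin 1 (-0.33). Whether the silencing genes bear on the ERV1 levels was not tested.

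The remaining 9 ERV1 rows had counts but too few to be tested. They were the LTRs and internal rows of HERV-Fc1 and HERV-Fc2 other than HERV-Fc1-int, with HERV1_LTRc, HERV1_LTRd, HERV1_LTRe and LTR7A. No ERV1 row was without a count in all libraries. HHLA3 was the only testable gene among 7 listed transcripts associated with HERVH or LTR7. It stood at 2.85 and 2.75 CPM with the TARDBP hairpin and between 1.84 and 3.16 CPM in the controls, overlapping them.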

How the data were processed

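RNA from 6 SH-SY5Y libraries was depleted of ribosomal RNA and made into stranded libraries, per the labels' protocols. Per the submitters' processing notes, the tools were bcl2fastq and STAR 2.5.2b and the build hg19. The authors deposited raw counts with a line for each gene symbol and each repeat subfamily, per the file headers. How reads were counted (tool, repeat annotation, strand, reads with more than 1 match) is not given here. Reads can match several copies or related subfamilies, so rows of a lineage may share reads, and transcription from an LTR cannot be told apart from copies lying within other transcripts.

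All rows entered one fit in R 4.3.3 (edgeR 4.0.16). Of 28953 rows, 17163 passed filterByExpr by group, with at least 10 counts as the per-library and 15 as the total minimum. After TMM scaling, edgeR's quasi-likelihood fit took the 6 libraries as 3 groups (3 residual and 5.41 prior degrees of freedom, biological coefficient of variation 10.5%). The TARDBP hairpin was compared with the mean of both controls and with each, and the controls with each other. Benjamini-Hochberg adjustment ran over all tested rows, and calls needed an adjusted p under 0.05. The SE was taken as the size of the log2 fold change divided by the root of its F statistic. The fit was also run on data simulated with the same spread for every row and few changed rows. These settings differ from the real data, and the outcome is not reported here. Alternatives were DESeq2 1.42.0, other scalings, no filter, a replicate block, leaving out each library, pooled controls, and fits on 4 libraries.

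The ERV1 rows, the lineages and the gene lists were chosen with earlier results of these data known, and 1 gene left out of the list of LTR-binding factors is not reported here. Named rows were TARDBP, the 10 largest rises and falls among called rows whose average log2 CPM reached 0 and whose TARDBP-hairpin libraries both lay beyond all 4 controls, the 8 rows of highest mean CPM, the 5 largest called differences in each direction between controls, all rows of the HERVH, HERV9, HERV-W, HERVS71, MER41, MER61 and LTR10 lineages, and the called list genes of lowest p. No fall met the rule. The HERVE, Harlequin, LTR2, LTR30, HERV3-int and LTR4 rows, the marker genes COL3A1, DCN, KRT18 and EPCAM, and single untested genes, were named after their values were seen. Promoter windows came from RefSeq, GRCh38.p14, which is not the build of the counts.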

Additional observations from a re-analysis of the deposited data

How the results depend on the processing

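Each alternative gave a median ERV1 log2 fold change above 0 in the comparisons with the TARDBP hairpin, while the number of called rows moved. Scaled on repeat rows alone, which moved the median of all tested rows to -0.18, -0.06, -0.33 and 0.25, the rows called higher and lower were 53 and 4 against the mean of both controls, 42 and 0 against control hairpin 1, 39 and 8 against control hairpin 2, and 14 and 8 for control hairpin 2 against control hairpin 1, where the ERV1 median turned to 0.056. On that scale 13.1% of all tested rows were higher and 36.2% lower against the mean of both controls. With the 4 controls pooled, 33 rows were called higher and 0 lower. For the other counts from altered fits, the share of all tested rows is not printed. Those counts show only how the ERV1 calls moved. DESeq2 called 34 rows higher against control hairpin 1 and 37 lower between the controls. Apart from the scaling on repeat rows, the cause was not tested. With 1 library left out, the rows called higher numbered 83 to 133 against the mean of both controls, 31 to 60 against control hairpin 1 and 97 to 159 against control hairpin 2, and 21 to 48 were called lower between the controls. Where 1 library was left in a group, it was assumed to vary like the others.

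The ratio of summed ERV1 levels against the mean of both controls, 1.29, was 1.24 by library totals and 1.10 as a share of repeat counts. Against control hairpin 1 it was 1.20, 1.14 and 1.09 in the same order. Against control hairpin 2 it was 1.39, with 1.44 by scaling on gene rows and 1.12 as a share of repeat counts, and between the controls it went from 0.859 to 0.970 as a share of repeat counts.

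Some rows that were not called changed sign. Scaled on repeat rows alone these were MER52A (-0.0904), LTR78 (-0.16), LTR10D (-0.0381), LTR10F (-0.0752), LTR10A (-0.12), LTR10B1 (-0.13), LTR7Y (-0.15), LTR12_ (-0.21) and LTR12E (-0.22). LTR12_ and LTR12E were at -0.0184 and -0.0254 with DESeq2, -0.0061 and -0.0133 with median-of-ratios factors and -0.0071 and -0.0156 without a filter, and LTR12E at -0.0035 with pooled controls. With 1 library left out, LTR12_ ran from -0.0264 to 0.0385, LTR12E from -0.25 to 0.21, LTR10A from -0.0318 to 0.23, LTR10B1 from -0.14 to 0.29, LTR7Y from -0.16 to 0.27 and LTR4 from -0.22 to 0.12. LTR2B was called higher without the first TARDBP-hairpin library, at 0.49.

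Same-numbered libraries of the TARDBP hairpin and each control deviated in opposite directions (r = -0.188 and -0.207). Those of the controls deviated together (r = 0.173). With 2 libraries in each group, these values cannot decide whether the replicate numbers pair the libraries. With the replicate number as a block, 138, 57 and 153 rows were called higher against the mean of both controls, control hairpin 1 and control hairpin 2, and 44 lower between the controls. The median SE was 0.207 under 5 CPM and 0.0779 over 50 CPM, and the part of depth in the calls was not tested.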
